A study of Mus musculus with 24 samples.

Results

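Bone marrow-derived macrophages (BMDMs) lacking CITED2 (KO) were compared with wild-type (WT) BMDMs after both had been given interferon gamma (IFNg). The comparison rested on 6 of the 24 libraries of the series, 3 from KO and 3 from WT cells, and on the 18637 of 43629 listed genes whose value reached 1 in 3 or more libraries. All samples are labelled as C57BL/6 at postnatal week 10, and the untreated KO and WT cells of the series (3 libraries each) served to ask whether a genotype difference was already present without IFNg. The labels do not state how Cited2 was deleted, in which cells, or the dose and duration of IFNg. Nor do they say if the replicates of a group were separate animals or cultures. The fit estimated the spread of each gene jointly from all 24 libraries, other treatments included. The p-values and SEs therefore cover only this spread among libraries, which may be technical. Values are read counts normalised by 1 factor per library, and total reads ranged from 15893968 to 42477121 in KO and from 28455953 to 73409343 in WT libraries with IFNg. The macrophage markers Csf1r, Emr1 (the F4/80 gene, Adgre1), Itgam, Cd68, Fcgr1, Mertk, Cd14 and Spi1 were abundant in all 6 libraries, from 3493.5 for Cd14 to 58634 for Emr1.

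CITED2 is a transcriptional co-regulator without a DNA-binding domain of its own that binds the coactivators CBP and p300 and can keep other factors, among them HIF-1 alpha, from binding them. IFNg acts through its receptor, JAK kinases and STAT factors at gamma-activated sites (GAS) in target promoters and induces a second layer of regulators such as IRF1 and the class II transactivator CIITA. Type I interferon acts through a complex of STAT factors with IRF9 at interferon-stimulated response elements (ISRE), and IFNg-treated macrophages express many of the same target genes. The questions were which of these gene groups differed between KO and WT cells under IFNg, and which differences were larger or smaller than in untreated cells.

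The promoters of 5 genes from the groups that the comparison turned on are given first, as the 250 bases before the RefSeq start on the gene's own strand (build GRCm38.p6). Capitals mark matches to the ISRE letters, GAAA, any pair of bases and GAAA again, on either strand; the matches shown all lie on the opposite strand and so read TTTC, a pair of bases and TTTC. Rsad2 (chr12:26456453-26456702, minus strand), Ifit3 (chr19:34583279-34583528, plus strand) and Cmpk2 (chr12:26468965-26469214, plus strand) are antiviral genes that were higher in KO cells. Gbp2 (chr3:142620413-142620662, plus strand) is a direct IFNg target whose level was close in both genotypes, and H2-Aa (chr17:34287824-34288073, minus strand) an MHC class II gene that was lower in KO cells.
Rsad2: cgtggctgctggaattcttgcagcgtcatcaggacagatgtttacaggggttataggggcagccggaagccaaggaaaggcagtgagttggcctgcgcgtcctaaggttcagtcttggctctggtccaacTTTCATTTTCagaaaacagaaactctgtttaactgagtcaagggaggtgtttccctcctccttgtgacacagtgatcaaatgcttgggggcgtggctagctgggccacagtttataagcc
Ifit3: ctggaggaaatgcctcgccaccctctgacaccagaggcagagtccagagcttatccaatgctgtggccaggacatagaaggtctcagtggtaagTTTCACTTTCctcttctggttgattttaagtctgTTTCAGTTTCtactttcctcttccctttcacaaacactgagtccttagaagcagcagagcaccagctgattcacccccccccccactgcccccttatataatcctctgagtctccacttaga
Cmpk2: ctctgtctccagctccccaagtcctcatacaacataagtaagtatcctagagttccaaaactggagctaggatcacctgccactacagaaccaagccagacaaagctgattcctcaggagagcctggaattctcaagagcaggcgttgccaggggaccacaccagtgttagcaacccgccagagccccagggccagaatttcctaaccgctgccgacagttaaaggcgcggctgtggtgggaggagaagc
Gbp2: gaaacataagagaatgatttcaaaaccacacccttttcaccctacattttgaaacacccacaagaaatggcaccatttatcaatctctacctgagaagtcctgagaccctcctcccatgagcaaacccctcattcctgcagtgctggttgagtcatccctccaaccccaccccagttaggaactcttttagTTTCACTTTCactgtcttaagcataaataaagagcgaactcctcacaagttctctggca
H2-Aa: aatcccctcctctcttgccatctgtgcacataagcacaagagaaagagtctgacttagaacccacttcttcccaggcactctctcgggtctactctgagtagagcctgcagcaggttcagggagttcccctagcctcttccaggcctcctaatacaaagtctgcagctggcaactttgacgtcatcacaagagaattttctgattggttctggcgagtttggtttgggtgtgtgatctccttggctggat
The match in Rsad2 began 120 bases before the start, those in Ifit3 at 156 and 122, and that in Gbp2 at 59, whereas these letters were not in the windows of Cmpk2 and H2-Aa. The GAS letters TTCNNNGAA were in none of the 5 windows. Other genes held them: 874 of 11928 tested genes with a window (7.33%), 46 of 642 (7.17%) higher in KO and 36 of 598 (6.02%) lower. Of all tested type I interferon and antiviral genes with a window, 4 of 28 held the GAS letters, and of those higher in KO 2 of 21. Of the GBP and IRG genes named below 6 of 10 held them. Over the tested genes with a window, 416 of 11928 (3.49%) held the ISRE letters, against 45 of 642 (7.01%) of the genes higher in KO and 23 of 598 (3.85%) of those lower in KO. Of all tested type I interferon and antiviral genes with a window, 10 of 28 (35.7%) held them, and of those higher in KO 9 of 21 (42.9%). Of the guanylate-binding protein (GBP) and immunity-related GTPase (IRG) genes 9 of 10 held them. These are matches of letters, not binding sites.

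Cited2 (ENSMUSG00000039910, chromosome 10) was nearly absent from the KO libraries, with values of 11.9, 10.2 and 18.7, against 2308, 2623 and 2383 in WT. Its log2 difference, KO minus WT throughout, was -7.42 ± 0.34 (SE of the fit, limma adjusted p = 2.3e-13). The KO and WT libraries did not overlap, and the difference has the direction that the labels give. Lyz2, the lysozyme gene that is often used to drive Cre recombinase in myeloid cells, read 341, 402 and 395 in KO and 643, 612 and 598 in WT (log2 difference -0.71 ± 0.07, adjusted p = 1.4e-07). Lyz1, its neighbour and close copy, with which it may share reads, averaged 469 ± 99.9 in KO and 970 ± 29.6 in WT (SD, n = 3 each).

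With IFNg, 901 genes (4.83% of those tested) were higher and 785 (4.21%) lower in KO than in WT cells at a limma adjusted p below 0.05. Most differences were moderate: the median size on the log2 scale was 0.44 among the genes that were higher and 0.48 among those that were lower, and 179 and 151 of them reached 1. All 3 KO libraries lay above all 3 WT libraries in 2269 genes (12.2% of those tested) and below them in 2931 (15.7%), and of the called genes the genotypes did not overlap in 897 and 779. The median log2 difference over all genes tested was -0.03. Genes were also classed by their IFNg response averaged over both genotypes, if at least 2-fold with a limma adjusted p below 0.05 in the same fit. Of 2103 genes raised by IFNg, 223 were higher and 238 lower in KO. Of 2466 genes that IFNg lowered by as much, 190 were higher and 102 lower in KO. Of the other 14068 genes 488 were higher and 445 lower. Both tests share 1 estimate of spread, so genes with a wide spread fall more readily among these 14068. The shares called therefore cannot show whether IFNg-responsive genes differed more often between genotypes. In such bulk samples, fewer cells of a type and less RNA per cell cannot be told apart.

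**Figure D1:**
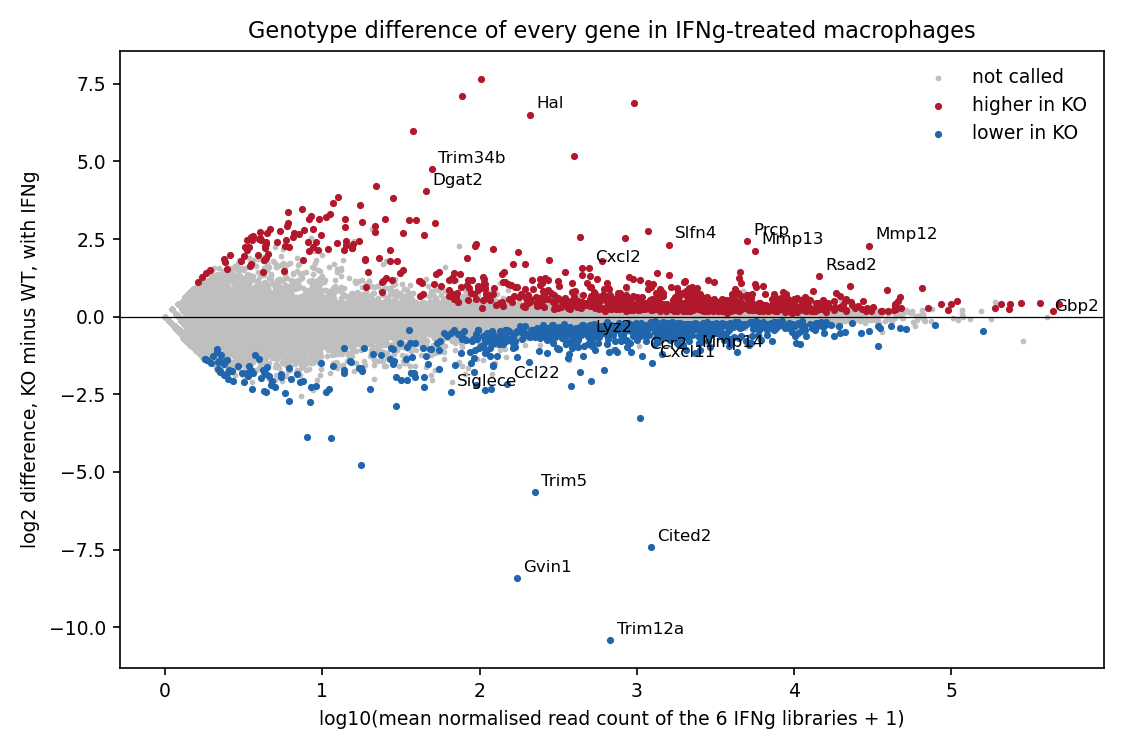
Genotype difference of every tested gene in IFNg-treated macrophages (log2, KO minus WT) against the mean normalised read count of the 6 libraries (log10 axis). Red points are the 901 genes higher and blue points the 785 genes lower in KO; Hal and Prcp stand out above and Cited2, Trim12a and Gvin1 below, while Gbp2 lies at 0.

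Genes that IFNg induces differed between genotypes in some groups and not in others. For each list below, the counts stand against 4.83% higher and 4.21% lower of all genes tested with IFNg. Without treatment these shares were 4.11% and 3.05%. None of the 16 tested GBP and IRG genes, which encode GTPases that attack vacuoles of intracellular pathogens, passed the limma test (1 higher and 0 lower at an unadjusted p below 0.05; 2 higher and 1 lower with edgeR, 1 higher with DESeq2), against 9.05% of all genes called in either direction, and their median log2 difference was -0.02. Gbp2 read 393160, 409771 and 416624 in KO and 388903, 421762 and 417383 in WT. The KO and WT values of Gbp2 overlapped. Irf1, which encodes the IFNg-induced transcription factor IRF1, read 60894, 61592 and 61882 in KO and 60134, 59320 and 61606 in WT. Its log2 difference was 0.03 ± 0.06 with IFNg, whereas untreated cells had 2337 in KO and 1639 in WT on average. Nos2, the inducible nitric oxide synthase gene, averaged 35579 ± 2095 in KO and 30009 ± 1534 in WT (SD, n = 3 each, limma adjusted p = 0.75). Nos2 passed with edgeR (adjusted p = 0.031) and DESeq2 (0.010), among 17 alternatives with a range of 0.010 to 0.89.

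Of 21 genes of the IFNg receptor and JAK-STAT-IRF list, 4 were higher and 2 lower in KO (median 0.03), and 2 were higher without KO replicate 3 or without WT replicate 1. Irf8, a transcription factor of the monocyte lineage that pairs with IRF1, had values of 61770, 54603 and 56440 in KO and 37820, 36114 and 37519 in WT. Every KO library lay above every WT library, and the log2 difference was 0.63 ± 0.05 (adjusted p = 9.3e-09). Irf7, the main inducer of type I interferon genes, was higher by 0.63 ± 0.11, with a mean of 6137 in KO and 3964 in WT. Nmi and Cish, a suppressor of cytokine signalling, were also higher, by 0.26 ± 0.07 and 1.13 ± 0.35, and the calls were lost in 3 (Nmi) and 9 (Cish) of 17 alternatives. Ifngr1, the ligand-binding chain of the IFNg receptor, read 1694, 1870 and 1844 in KO and 2540, 2846 and 2713 in WT (-0.58 ± 0.06, adjusted p = 6.5e-07). Ifngr1 lies on chromosome 10 within 5 Mb of Cited2, a stretch where 4 of 67 tested genes were higher and 8 lower in KO (17.9% called, against 9.05% of all genes); the part of its position in the result was not tested. Stat3 fell by 0.23 ± 0.06 on the log2 scale, with 11613 in KO and 13594 in WT.

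Type I interferon and antiviral genes were mostly higher in KO. Of 37 tested, 24 were higher and 1, Trim21, lower, against 4.83% and 4.21% of all genes, and their median log2 difference was 0.33. Rsad2, which encodes the antiviral enzyme viperin, read 19367, 20518 and 21103 in KO and 7565, 9159 and 8166 in WT. The log2 difference of Rsad2 was 1.30 ± 0.09 (limma adjusted p = 2.2e-10). Cmpk2, its neighbour on chromosome 12 and a mitochondrial nucleotide kinase gene, read 7344, 7453 and 7899 in KO and 3473, 3877 and 3534 in WT, 1.06 ± 0.08 higher on the log2 scale (adjusted p = 4.2e-10). In untreated cells Cmpk2 averaged 385 in KO and 384 in WT. Ifit3, whose product binds foreign RNA together with IFIT1, had values of 2955, 2842 and 3144 in KO and 1393, 1632 and 1556 in WT (0.97 ± 0.11). Other members that rose were Ifi44 (1.24 ± 0.12), Ifit2 (0.93 ± 0.13), Isg15, the ubiquitin-like modifier gene (0.60 ± 0.08), Ifit1 (0.59 ± 0.10) and Oas3, an RNA sensor (0.53 ± 0.06). Trim21, an antibody receptor of the cytosol, averaged 3304 ± 163 in KO and 4425 ± 77.0 in WT (-0.42 ± 0.06).

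Without treatment the same 37 genes showed no such shift: 6 were higher and 7 lower in KO (4.11% and 3.05% of all genes), with a median of -0.02. The difference between the genotype effects with and without IFNg (interaction, KO minus WT with IFNg less KO minus WT without) was positive in 15 of them and negative in 1, Oasl1, against 1.32% and 1.18% of all genes. Ifit1 was lower in untreated KO cells, with 265 on average against 360 in WT, and higher with IFNg, with 9258 in KO and 6135 in WT (interaction 1.03 ± 0.15, adjusted p = 8e-05). Oasl1 was higher in KO cells in both conditions, by 0.90 ± 0.11 with IFNg and by 1.49 ± 0.11 without. The interaction of Oasl1 was called in 12 of 23 alternatives. IFNg raised all 37 genes in WT cells. With single libraries left out, 19 to 23 of the 37 were called higher.

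**Figure D2:**
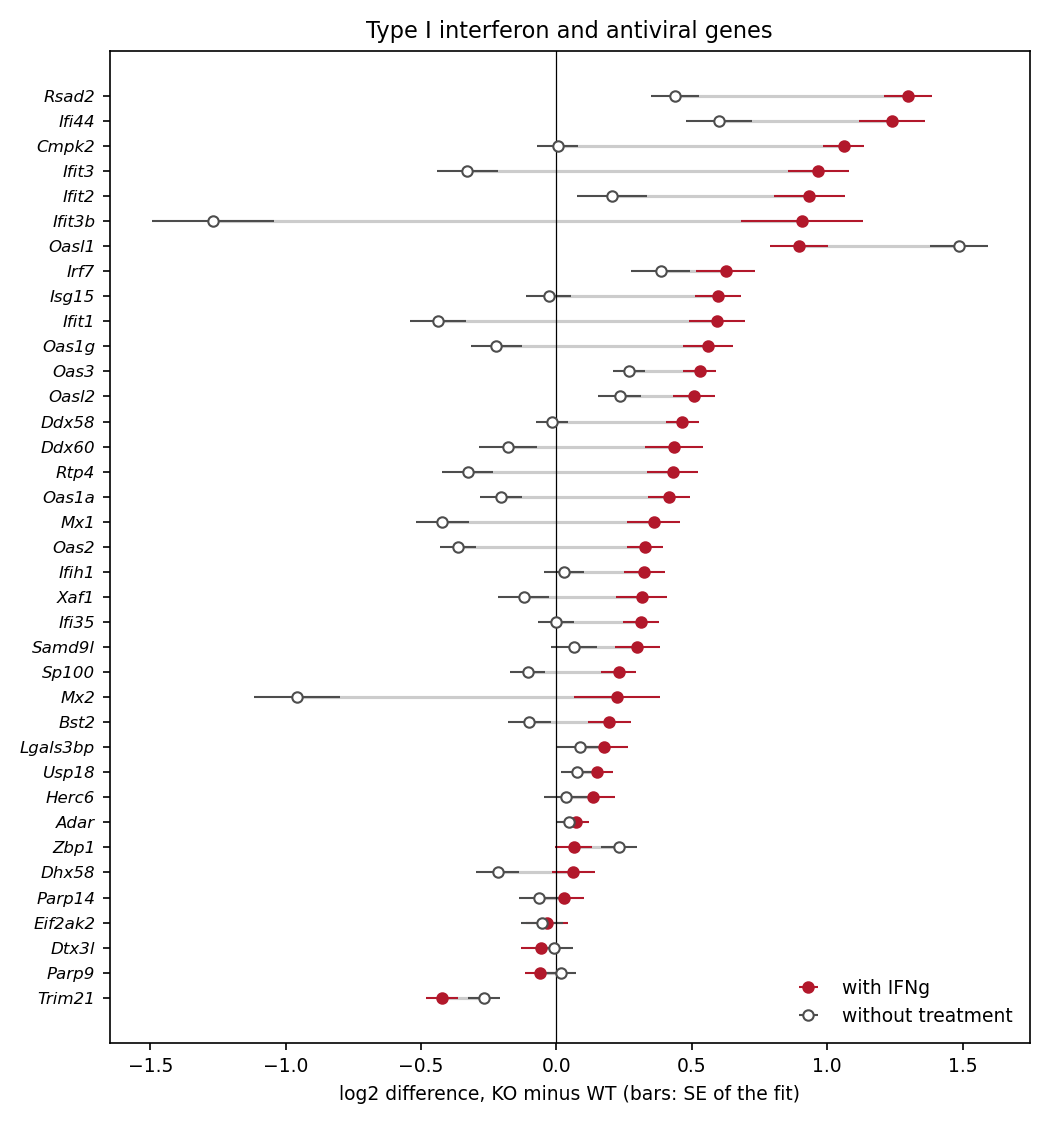
Genotype difference (log2, KO minus WT, with the SE of the fit) of each of the 37 type I interferon and antiviral genes, filled with IFNg and open without treatment. Filled points lie mostly right of 0, up to Rsad2 at 1.30, while the open points lie on both sides, with Oasl1 at 1.49.

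Members of 2 further interferon-inducible families were higher in KO. Of 10 Ifi200 genes, which encode nucleic acid sensors and related nuclear proteins, 4 were higher and none lower in KO with limma, edgeR or DESeq2 (none lower at an unadjusted p below 0.05; median 0.30); edgeR and DESeq2 called 7 higher, and 2 were called without WT replicate 1. In untreated cells 6 of these 10 genes were higher in KO, with a median of 0.32. Pydc4 (Ifi213) read 3890, 3848 and 3944 in KO and 1618, 1827 and 1738 in WT, and Pyhin1 (Ifi209) rose by 0.65 ± 0.10. These genes are close copies of each other, so reads may be split between them. Of 7 Schlafen genes 4 were higher and none lower with limma, edgeR or DESeq2 (none lower at an unadjusted p below 0.05; median 0.26), and 3 were higher in untreated cells. Slfn4, a Schlafen gene of myeloid cells, read 2485, 2893 and 2599 in KO and 502, 563 and 526 in WT, 2.32 ± 0.12 higher on the log2 scale (limma adjusted p = 8.7e-13). Slfn1 and Slfn3 were higher by 1.42 ± 0.17 and 0.70 ± 0.11. For Slfn4 the difference was 1.01 ± 0.12 without treatment, and the interaction was 1.31 ± 0.17 (adjusted p = 1.8e-05).

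Class I and class II antigen presentation genes differed in opposite directions. Of 21 MHC class I and immunoproteasome genes 8 were higher and none lower in KO (none lower at an unadjusted p below 0.05 or with edgeR or DESeq2; median 0.12); 5 were higher in the fit to the 6 IFNg libraries alone. In untreated cells 16 of the 21 were higher in KO, with a median of 0.33, and the interaction was negative in 2, Psmb8 (-0.28) and Tapbpl (-0.52), an immunoproteasome subunit gene and a gene of peptide loading, both named after their values were seen. H2-D1, a classical class I heavy chain gene, read 134155, 122674 and 127298 in KO and 93322, 87472 and 89889 in WT (0.50 ± 0.06, adjusted p = 3.3e-06). B2m, the shared light chain gene, averaged 207486 ± 5056 in KO and 172196 ± 7129 in WT, and its call was lost in the fit to the 6 libraries alone (adjusted p = 0.059, range over the alternatives 3.9e-06 to 0.059). H2-Q6 and H2-Q7, nonclassical class I genes that are near-identical copies and may share reads, were higher by 0.64 ± 0.07 and 0.66 ± 0.11.

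Of 16 MHC class II presentation genes 7 were lower and 2 higher in KO (median -0.36). H2-Aa, the alpha chain gene whose promoter is shown above, had 5279, 5470 and 5364 in KO and 8242, 7727 and 8038 in WT. All KO libraries of H2-Aa lay below all WT libraries (-0.57 ± 0.09, limma adjusted p = 3.8e-05). Cd74, which encodes the invariant chain that escorts class II molecules, read 17195, 15012 and 15700 in KO and 23631, 21967 and 23599 in WT (-0.53 ± 0.08). H2-Eb1 and the peptide-loading gene H2-DMa fell by 0.62 ± 0.09 and 0.63 ± 0.09 on the log2 scale, and H2-Ab1, H2-DMb1 and Rfx5 were the other members that were lower. Ctss and Ifi30, a lysosomal protease gene and a lysosomal reductase gene of antigen processing, were higher, by 0.40 ± 0.06 and 0.31 ± 0.06. Ciita, the class II transactivator gene, averaged 4462 ± 359 in KO and 5289 ± 127 in WT; its libraries did not overlap, but the difference of -0.25 ± 0.09 missed the threshold (adjusted p = 0.12, range over the alternatives 0.011 to 0.35). Without treatment 7 class II members were lower and 1 higher, with a median of -0.36, and 1 member, Ciita, had an interaction (0.54 ± 0.13, limma adjusted p = 0.026). This interaction of Ciita was called in 15 of 23 alternatives and not with edgeR.

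Fc receptor and complement genes were more often lower than higher in KO, 7 against 2 of 17 (median -0.32), with 1 higher when any single IFNg library was left out; in untreated cells 7 were lower and 4 higher. C1qa, a chain of the complement starter C1q, read 8788, 6405 and 6952 in KO and 14176, 12470 and 12585 in WT (-0.84 ± 0.14, adjusted p = 0.00011). Cfp, the complement activator properdin, averaged 1233 ± 12.3 in KO and 1938 ± 172 in WT. Fcgr1, the high-affinity IgG receptor gene, was lower by 0.50 ± 0.05 on the log2 scale, with 7993 in KO and 11267 in WT. Fcgr2b, the inhibitory IgG receptor gene, was higher, with 17927 ± 548 in KO and 13633 ± 325 in WT (0.39 ± 0.05), and this difference was smaller than the 0.97 ± 0.05 of untreated cells (interaction -0.57 ± 0.07, adjusted p = 1.5e-05).

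**Figure D3:**
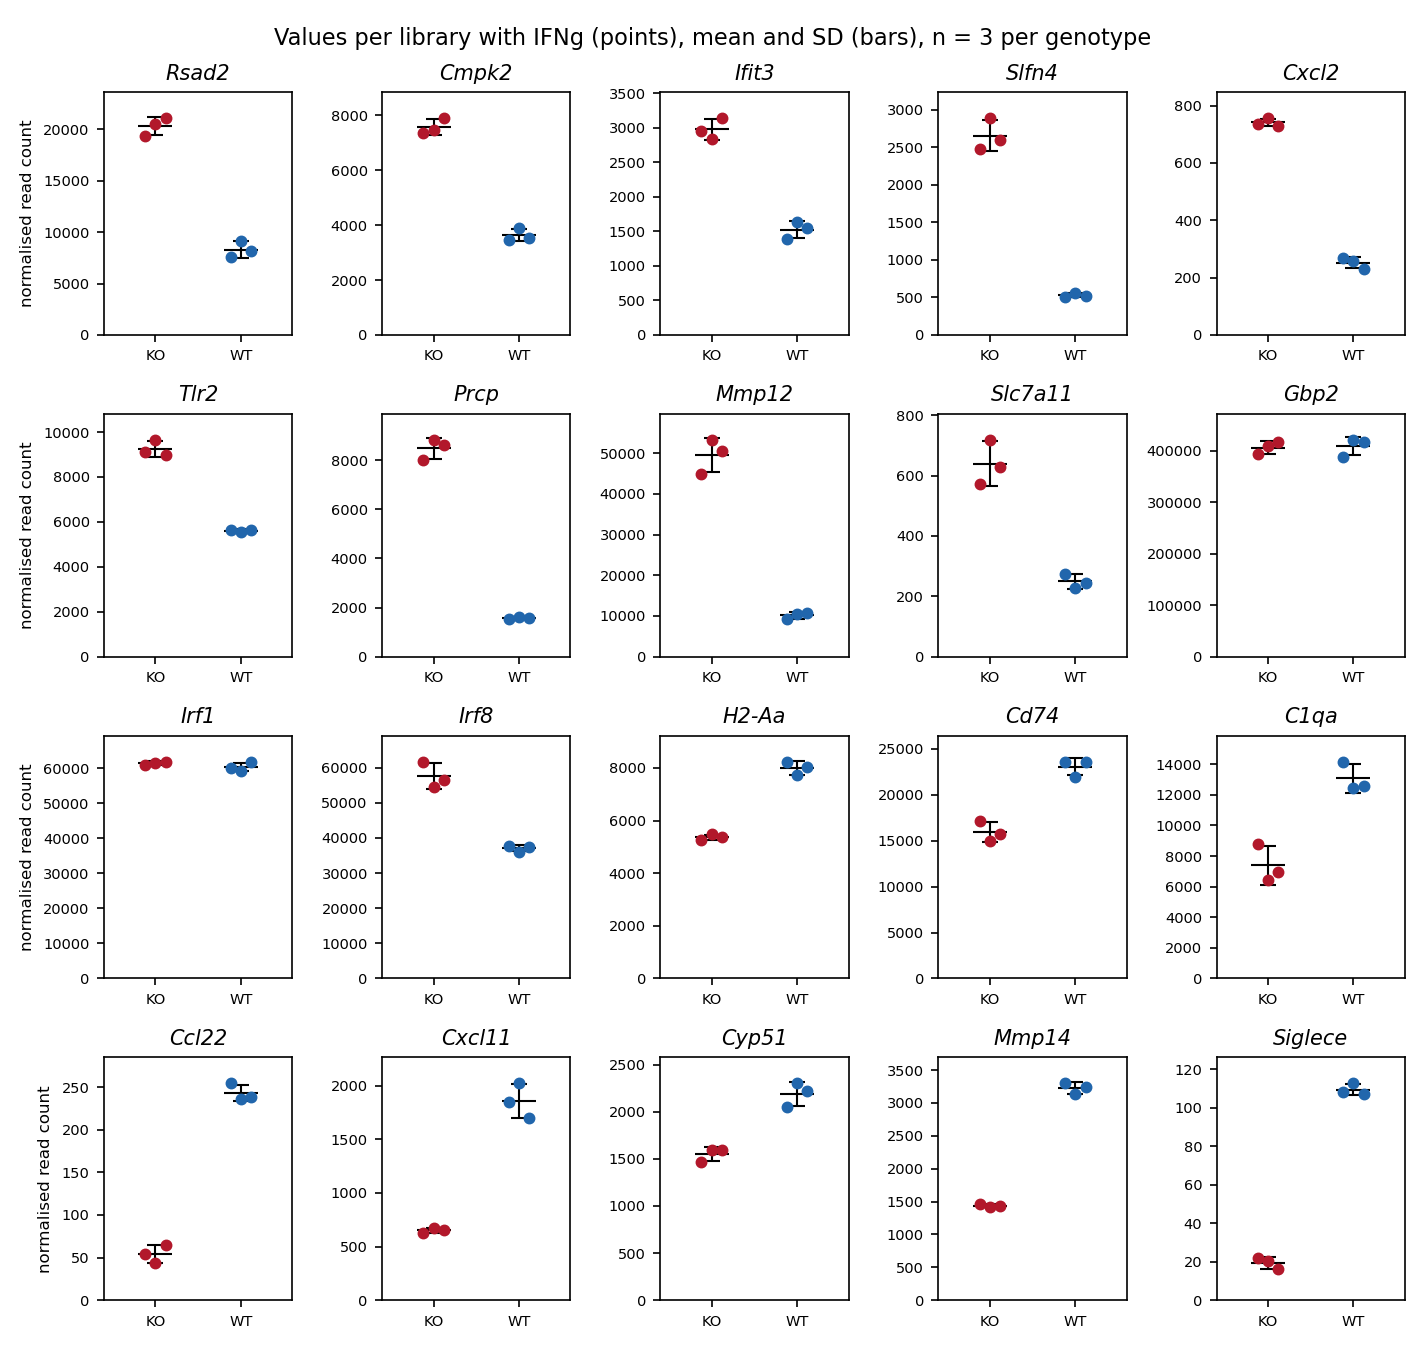
Normalised read counts of 20 genes in each IFNg library, KO left of WT, with the mean and SD of 3 libraries; every axis starts at 0. Points of Rsad2, Cmpk2, Ifit3, Slfn4, Cxcl2, Irf8 and Prcp lie higher in KO, those of H2-Aa, Cd74, C1qa, Ccl22 and Siglece lower, and those of Gbp2 and Irf1 overlap.

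Chemokine genes changed in both directions. Of 19 tested, 5 were higher and 2 lower in KO (with edgeR 5 and 5). Cxcl2, a neutrophil attractant, read 737, 757 and 731 in KO and 268, 258 and 230 in WT, 1.56 ± 0.12 higher on the log2 scale (limma adjusted p = 1.2e-09). In untreated cells Cxcl2 averaged 46.3 in KO and 49.5 in WT, and the interaction was 1.63 ± 0.17. Cxcl1, a related neutrophil attractant, averaged 31.8 ± 2.87 in KO and 14.1 ± 1.86 in WT, and its call was lost in 5 of 17 alternatives. Ccl3 and Ccl4, inflammatory CC chemokines, were higher by 0.53 ± 0.07 and 0.82 ± 0.11 with IFNg but lower without treatment (interaction 0.90 ± 0.10 and 1.20 ± 0.15), and Ccl6 was higher by 0.64 ± 0.08. Ccl22, a ligand of CCR4 on regulatory T cells, read 54.2, 43.5 and 64.2 in KO and 255, 236 and 239 in WT, which made it the member with the most negative difference (-2.17 ± 0.34, adjusted p = 9.1e-05). Cxcl11, an IFNg-induced ligand of CXCR3, read 625, 672 and 656 in KO and 1846, 2021 and 1700 in WT (-1.51 ± 0.33, adjusted p = 0.0031). Cxcl9, another CXCR3 ligand, had 205353, 206580 and 215884 in KO and 339312, 374260 and 370960 in WT. The libraries of Cxcl9 did not overlap, yet its difference of -0.79 ± 0.30 missed the threshold in the fit to all libraries (adjusted p = 0.13, range over the alternatives 2e-06 to 0.28), and it passed in the fit to the 6 IFNg libraries alone, with edgeR and with DESeq2.

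Among 25 inflammatory cytokine and mediator genes, 8 were higher and 2 lower in KO (5 higher without a filter on low values, and 4 without KO replicate 2 or WT replicate 1, 5 without KO replicate 3 or WT replicate 3; 1 lower without KO replicate 2, WT replicate 1 or WT replicate 3). In untreated cells 2 were higher and 3 lower. Tnfsf15, a TNF family cytokine gene, read 1081, 1342 and 1376 in KO and 464, 543 and 539 in WT (1.29 ± 0.15, adjusted p = 1.3e-06). Il1b averaged 148 ± 16.7 in KO and 59.8 ± 5.14 in WT, and Il1a 190 ± 16.8 in KO and 87.8 ± 11.7 in WT. Il1rn, which encodes the antagonist of both interleukin 1 forms, was also higher, by 0.50 ± 0.07, with 53645 in KO and 38092 in WT. Nlrp3, the inflammasome sensor gene, was lower, with 5774, 5705 and 5734 in KO and 7829, 7521 and 7802 in WT, and its difference of -0.43 ± 0.06 was smaller than that of untreated cells (-1.07 ± 0.06; interaction 0.65 ± 0.08). Ptges, a prostaglandin E synthase gene, was the other member that was lower, a call lost in 4 of 17 alternatives. Il12b, the shared chain of interleukins 12 and 23, read 4281, 5007 and 4780 in KO and 7316, 7071 and 7935 in WT; its libraries did not overlap, but the call needed the fit to the 6 IFNg libraries, edgeR or DESeq2 (-0.67 ± 0.48, adjusted p = 0.55, range over the alternatives 6.3e-18 to 0.73). Of 15 NF-kB subunits and regulators 2 were higher and 2 lower (5 and 2 with DESeq2; 1 higher without KO replicate 1 or WT replicate 2 and 4 without KO replicate 2; 1 lower without KO replicate 1 or 3 or any WT library), with Rela at 4370 in KO and 3271 in WT and the feedback inhibitor gene Tnip3 at 13435 in KO and 16909 in WT. Of 16 costimulatory and checkpoint ligand genes 4 were higher and 2 lower (9 and 3 with edgeR; 2 higher without WT replicate 1). Icosl, the ligand of the T cell costimulator ICOS, read 1306, 1246 and 1265 in KO and 2513, 2362 and 2381 in WT (-0.93 ± 0.08), and Lgals9, a galectin gene, was higher by 0.44 ± 0.05.

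Macrophage identity genes moved in both directions, 9 higher and 5 lower of 29 (median 0.17). Tlr2, the receptor for bacterial lipopeptides, read 9093, 9655 and 8971 in KO and 5649, 5560 and 5636 in WT. Tlr2 was higher with IFNg by 0.72 ± 0.05 and lower without treatment by 0.53 on the log2 scale, with 928 in KO and 1346 in WT there (interaction 1.25 ± 0.07, adjusted p = 1.2e-10). Mrc1, the mannose receptor gene, had 8126 in KO and 6262 in WT with IFNg, against 4783 in KO and 7346 in WT without (interaction 1.00 ± 0.11). Clec7a, the beta-glucan receptor dectin-1, was higher in both conditions, by 0.99 ± 0.07 with IFNg. Mertk, a receptor for the uptake of dying cells, was higher by 0.47 ± 0.05. Ccr2, the monocyte chemokine receptor gene, read 632, 626 and 653 in KO and 1409, 1683 and 1495 in WT (-1.26 ± 0.15), and Emr1 and Itgam were lower by 0.38 ± 0.06 and 0.31 ± 0.05 on the log2 scale.

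Lysosomal and oxidant-defence genes were more often higher than lower in KO. Of 30 lysosome and autophagy genes 15 were higher and none lower (1 lower at an unadjusted p below 0.05, 0 with edgeR and 1 with DESeq2; median 0.18), and in untreated cells 9 were higher and 1 lower. Atp6v0d2, a proton pump subunit, read 16007, 17548 and 17396 in KO and 8666, 9940 and 9837 in WT (0.84 ± 0.06, adjusted p = 1.1e-09). Sqstm1, the autophagy receptor p62, averaged 23357 ± 1185 in KO and 13717 ± 573 in WT, and Ctsd and Psap, a protease and a lipid-degradation cofactor, were higher by 0.45 ± 0.06 and 0.44 ± 0.07. Of 18 NRF2 and iron genes 9 were higher and 1 lower (median 0.18), against 6 and 2 in untreated cells. Nfe2l2, which encodes the antioxidant regulator NRF2, read 17960, 18041 and 18030 in KO and 11979, 12711 and 12924 in WT. The genotypes of Nfe2l2 lay apart with IFNg (0.52 ± 0.05) and close together without, at 9819 in KO and 10194 in WT (interaction 0.58 ± 0.07, adjusted p = 7.6e-06). Slc7a11, the cystine importer gene, read 571, 719 and 628 in KO and 275, 227 and 246 in WT (1.35 ± 0.10), and Prdx1, a peroxidase gene, was higher by 0.85 ± 0.08. Slc40a1, the iron exporter ferroportin, averaged 675 ± 89.0 in KO and 224 ± 17.4 in WT, while Tfrc, the transferrin receptor gene, averaged 2875 ± 360 in KO and 4609 ± 279 in WT.

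Lipid handling genes changed in both directions, and cholesterol synthesis genes were lower. Of 31 PPARg, LXR and lipid handling genes 10 were higher and 6 lower (median 0.23). Dgat2, an enzyme of triglyceride synthesis, read 89.8, 82.5 and 83.0 in KO and 4.48, 2.85 and 5.69 in WT (4.05 ± 0.31, adjusted p = 1.7e-09). Fabp4 and Fabp5, fatty acid carriers, were higher by 0.97 ± 0.06 and 0.58 ± 0.05, and Lipa, the lysosomal lipase gene, by 0.52 ± 0.06. Scd2, a fatty acid desaturase gene, was lower, with 263 ± 14.1 in KO and 641 ± 9.45 in WT. Of 23 cholesterol biosynthesis genes 10 were lower and none higher (0 higher at an unadjusted p below 0.05, with edgeR or with DESeq2; median -0.39), and the count of lower members was 15 with edgeR, 17 with DESeq2 and 16 without KO LPS replicate 1. In untreated cells 7 were lower. Cyp51, a sterol demethylase gene, read 1466, 1597 and 1593 in KO and 2049, 2301 and 2214 in WT (-0.49 ± 0.06, adjusted p = 1.2e-06). Hsd17b7 and Fdps, further enzymes of the pathway, were lower by 0.70 ± 0.10 and 0.59 ± 0.08 on the log2 scale.

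Of 42 HIF-1 and glycolysis genes 11 were lower and 3 higher in KO with IFNg (7 lower in the fit to the 6 IFNg libraries alone, and 7 without KO replicate 2, KO replicate 3 or WT replicate 3; median -0.13). Bnip3, a mitophagy gene induced by hypoxia, read 442, 446 and 468 in KO and 753, 878 and 862 in WT (-0.87 ± 0.12, adjusted p = 1.5e-05). Aldoc and Pdk1, an aldolase gene and a kinase gene that curbs pyruvate oxidation, fell by 0.78 ± 0.11 and 0.74 ± 0.08 on the log2 scale. Ldha, the lactate dehydrogenase gene, averaged 9027 ± 51.5 in KO and 10913 ± 386 in WT, and Tpi1 5056 ± 311 in KO and 6842 ± 249 in WT. Pfkfb3, a glycolytic activator, was among the 3 that were higher, with 4946 ± 108 in KO and 3432 ± 60.4 in WT. Without treatment 7 members of this list were higher and 3 lower, and the interaction was negative in 5 members, Ldha and Tpi1 among them. The interaction was -0.47 ± 0.10 for Tpi1 and -0.26 ± 0.07 for Ldha. The interaction of Ldha was called in 10 of 23 alternatives and not with edgeR.

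Stress genes of the ATF4 pathway were higher in part, 5 of 17 with 2 lower (6 and 6 with DESeq2). The count of lower members was 0 without KO replicate 1, WT replicate 2 or WT replicate 3, 1 without KO replicate 2 and 4 without WT replicate 1. Ddit3, which encodes the stress factor CHOP, read 1777, 1699 and 1674 in KO and 838, 832 and 818 in WT (1.05 ± 0.06, adjusted p = 8.1e-12). Trib3 and Sesn2, targets of ATF4, averaged 991 and 786 in KO and 578 and 510 in WT. None of the 33 oxidative phosphorylation genes passed the limma test (2 higher and 1 lower at an unadjusted p below 0.05; 1 higher with edgeR, 1 higher and 1 lower with DESeq2), and their median was 0.01. Of 33 cell cycle and replication genes 1 (3.03%) was higher and 2 (6.06%) lower, near the 4.83% and 4.21% of all genes. The count of lower members was 4 with edgeR and DESeq2, and 1 when any single IFNg library was left out. Mki67, the proliferation marker, was lower, at 649, 648 and 653 in KO and 1056, 1203 and 1234 in WT. Pcna, a replication gene and the 1 member called higher, rose by 0.23 on the log2 scale (limma adjusted p = 0.0023). Summed over the list, the values were 37604 to 39247 in KO and 36405 to 37646 in WT. Among 8 measured members of the CITED family and its partners, Smad3, a TGF-beta signal transducer gene, was higher, with 138 ± 19.9 in KO and 74.8 ± 11.6 in WT, and so was Lhx2, with 323 ± 18.1 in KO and 158 ± 6.81 in WT (adjusted p = 0.025, range over the alternatives 7.3e-13 to 0.095).

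**Figure D4:**
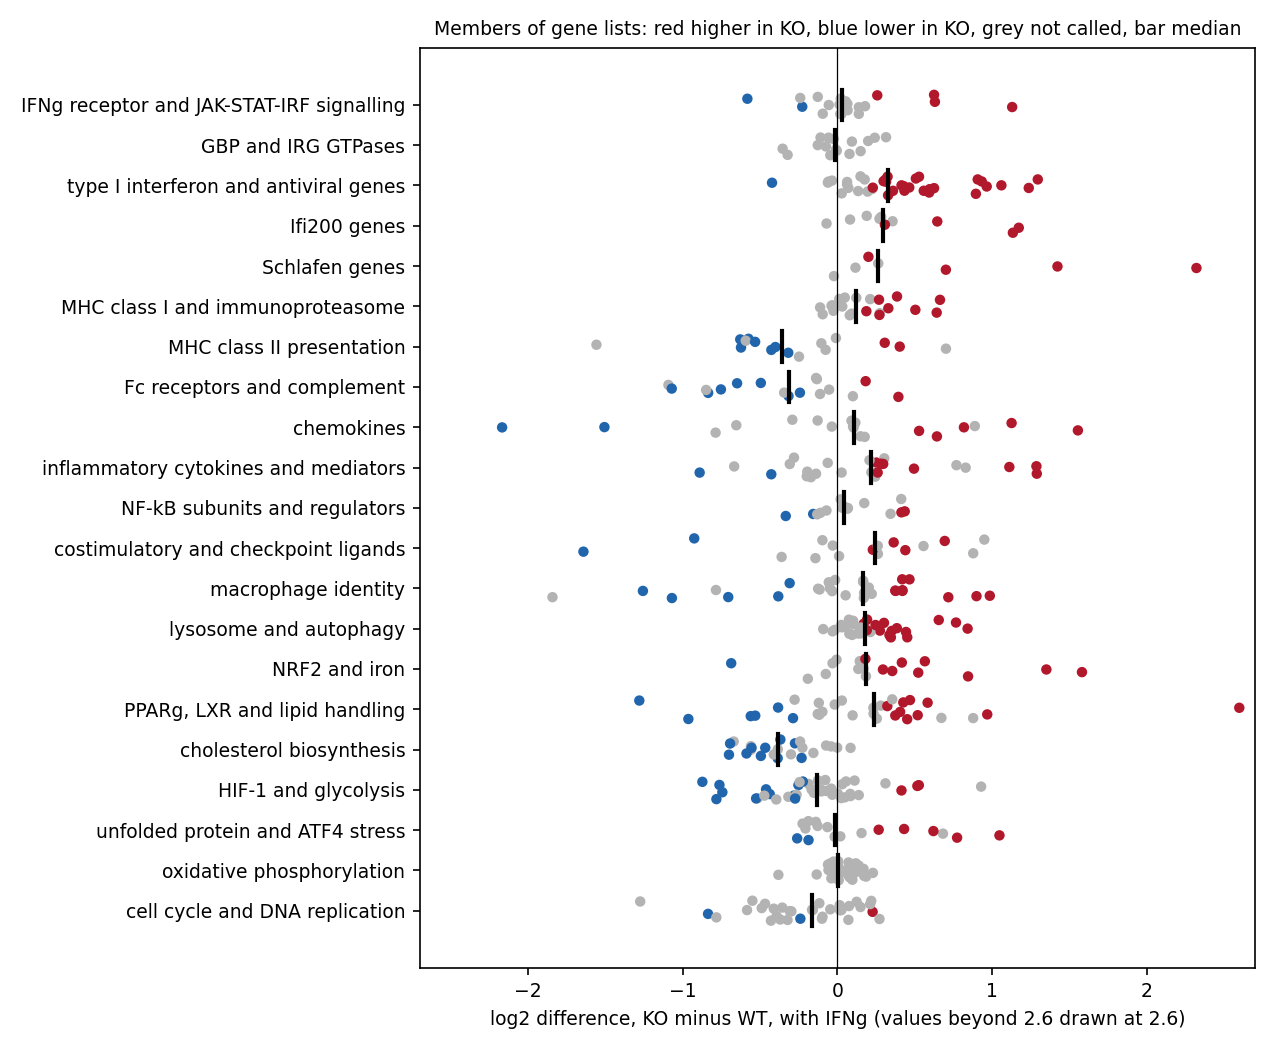
Log2 difference (KO minus WT with IFNg) of each member of 21 gene lists, 1 point per gene (the vertical scatter has no meaning), with the list median as a bar; red members were higher, blue lower and grey not called. The antiviral list lies right of 0 with 24 red points of 37, the class II and cholesterol lists lie left of it, and the GBP and IRG list lies around 0.

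Single genes with large differences stood outside these groups. Prcp, a lysosomal carboxypeptidase gene, read 8007, 8827 and 8607 in KO and 1545, 1596 and 1572 in WT, 5.40-fold higher (2.43 ± 0.05, limma adjusted p = 2.1e-19). In untreated cells Prcp averaged 3433 in KO and 2555 in WT, so that IFNg went with a higher level in KO and a lower one in WT (interaction 2.00 ± 0.08, adjusted p = 3.4e-14). Mmp12, the macrophage elastase gene, read 45012, 53328 and 50575 in KO and 9237, 10578 and 10699 in WT, and Mmp13, a collagenase gene, 8342, 9714 and 9285 in KO and 1858, 2242 and 2180 in WT. Mmp14, which encodes a membrane-bound metalloprotease, moved the other way, with 1469, 1415 and 1433 in KO and 3300, 3130 and 3248 in WT (-1.16 ± 0.09). The interaction of Mmp14 was -0.90 ± 0.13, with 45.6 in KO and 55.5 in WT without treatment. Hal, a histidine-degrading enzyme gene, was 104-fold higher, with 413 ± 29.1 in KO and 3.98 ± 2.22 in WT. Mamdc2 and Gpx3, an extracellular glutathione peroxidase gene, were higher by 1.41 ± 0.05 and 1.34 ± 0.06, and Egr3, an immediate early transcription factor gene, by 3.14 ± 0.65. Siglece, an inhibitory sialic acid receptor gene, read 22.02, 20.5 and 16.1 in KO and 108, 113 and 107 in WT (-2.44 ± 0.25), while untreated cells had 8.66 in KO and 8.21 in WT (interaction -2.49 ± 0.35, adjusted p = 6.2e-05). Gpr84, a receptor for medium-chain fatty acids, Aif1, Pacs1 and Cnn3 were lower by 1.20 ± 0.18, 1.15 ± 0.19, 1.15 ± 0.08 and 1.14 ± 0.21 on the log2 scale.

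A cluster of Trim and Gvin genes on chromosome 7, antiviral restriction factors and very large GTPases, held several of the most different genes. Of 16 members 8 were lower and 3 higher in KO. Trim12a (GRCm38 chromosome 7, 104299894 to 104315466) had no read in the KO libraries, against 1365, 1380 and 1312 in WT, at least 1308-fold lower when the KO group is set at 3 reads over the group. Gvin1 likewise had no KO read, against 326, 345 and 359 in WT, at least 332-fold lower. Trim5 read 16.9, 3.84 and 6.69 in KO and 455, 430 and 426 in WT, while Trim34b was higher, with 107, 84.4 and 92.4 in KO and 3.59, 0.570 and 4.98 in WT. Trim30d averaged 2857 ± 195 in KO and 5078 ± 333 in WT with IFNg, a difference of -0.83 ± 0.23 whose call was lost in 4 of 17 alternatives, against -4.75 ± 0.23 without treatment. Members of this cluster are close copies of each other, and reads may have been assigned to the wrong copy. With edgeR and DESeq2 6 members were higher, and 1 member was higher without KO replicate 2. The values count reads assigned to the reference sequence. Whether KO and WT genomes carry the same sequence at these genes, or around Cited2, was not tested, so the 0 values and the fold bounds of Trim12a and Gvin1 may not measure transcript level.

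Of the genes called higher in KO with IFNg, 418 were also called higher without treatment (46.4% of the IFNg calls and 54.6% of the untreated calls), and 257 of the lower ones were also lower (32.7% and 45.2%). The direction was opposite and called in both conditions for 23 of the genes higher and 19 of those lower with IFNg. An interaction was called for 246 genes with a positive sign (1.32%) and 220 with a negative sign (1.18%), and it was called for 173 of the 901 higher and 125 of the 785 lower genes. Arnt2, a partner of bHLH-PAS factors, had one of the largest positive interactions, with 151, 154 and 155 in KO and 28.7, 30.8 and 34.5 in WT with IFNg. Without treatment Arnt2 averaged 12.3 in KO and 20.2 in WT. Itgb8, an integrin chain gene that takes part in TGF-beta activation, was lower with IFNg, at 114 ± 21.2 in KO and 190 ± 17.6 in WT, and higher without, at 56.3 in KO and 15.1 in WT (interaction -2.61 ± 0.25, adjusted p = 5.3e-07). The call of Itgb8 with IFNg was lost in 1 of 17 alternatives. Gfra1, a receptor chain for a glial-derived growth factor, averaged 88.4 ± 15.4 in KO and 29.4 ± 10.0 in WT with IFNg and 0.408 in KO and 4.21 in WT without. The difference of Gfra1 with IFNg missed the threshold (limma adjusted p = 0.058), and its interaction was lost with DESeq2. In untreated libraries 3 reads correspond to values of 1.84 to 3.14 in KO and 1.62 to 7.33 in WT, so its untreated means rest on few reads.

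Summed per list, markers of other cell types were low beside the 29 macrophage identity genes, which summed to 910793 to 947701 in KO and 737504 to 759219 in WT. Some sums, such as that of the neutrophil markers, still exceeded the lowest value of the macrophage marker Cd14. Summed over 18 T and NK cell markers the values were 82.5 to 139 in KO and 54.7 to 62.2 in WT, with none called by limma (4 higher at an unadjusted p below 0.05; 1 with edgeR and 0 with DESeq2). B cell markers summed to 744 to 818 in KO and 128 to 157 in WT, nearly all of it from Igj, the J chain gene, with 696, 789 and 728 in KO and 106, 136 and 127 in WT. Pax5 and Cr2 were at 0. Of 181 immunoglobulin segments tested 60 (33.1%) were higher and 1, Ighm, lower in KO, against 4.83% and 4.21% of all genes. Their values summed to 5183 to 5754 in KO and 997 to 1122 in WT. In untreated cells 77 segments were higher and 1 lower, with a median log2 difference of 1.93, against 1.57 with IFNg. Of 15 tested neutrophil markers 1 (6.67%) was higher, close to the 4.83% of all genes. In the fit to the 6 IFNg libraries alone 0 were higher and 2 lower, and edgeR and DESeq2 also called 2 lower. Of 8 monocyte markers 2 were higher and 2 lower, each 1 to 2 with single IFNg libraries left out. Of 7 dendritic cell markers 1, Fscn1, was lower, and of 11 fibroblast markers 1 was lower. The count of lower fibroblast markers was 0 in the fit to the 6 IFNg libraries alone and with a replicate block. Sums were 6324 to 6662 in KO and 5823 to 6174 in WT for neutrophil, 3438 to 3700 in KO and 4288 to 4865 in WT for monocyte, 773 to 804 in KO and 922 to 995 in WT for dendritic cell, and 430 to 543 in KO and 505 to 577 in WT for fibroblast markers. Mast cell and basophil markers summed to 115 to 124 in KO and 183 to 221 in WT, and none of 8 was called by limma (4 lower at an unadjusted p below 0.05; 2 with edgeR and 1 with DESeq2). The hemoglobin genes were at 0, and none of the 2 tested erythroid markers was called by any of the 3 tools or at an unadjusted p below 0.05. None of the 7 tested mitochondrially encoded genes was called (1 higher at an unadjusted p below 0.05; 0 with edgeR and DESeq2). Of 18 genes of interleukin 4 activation 2 were higher and 4 lower (4 higher with edgeR, DESeq2, library weights or the 6 IFNg libraries alone; 2 lower without KO replicate 1 or any WT library), among them Il4ra, the receptor chain gene, with 6368 in KO and 8470 in WT. The part of such cells in the gene group differences was not tested.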

How the data were processed

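RNA sequencing libraries of mouse BMDMs were analysed, 24 in 8 groups of 3. The deposited table held a signal per gene, read counts that the authors had divided by 1 factor per library: read from the values, 100% came out as whole reads within 0.05. Per the submitters' processing notes, the build was mm10 (GRCm38) and the tools named were TopHat2 2.2.1, Cufflinks 2.2.1 and Cuffdiff, with no role stated. Of the tested identifiers 18472 were in the GENCODE M21 annotation used for positions, and RefSeq gave the promoters.

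Genes whose value reached 1 in 3 or more libraries were fitted as log2(value + 1) with limma 3.58.1 in R 4.3.3 (mean-variance trend, 1 mean per group, all 24 libraries, two-sided, Benjamini-Hochberg adjustment over 18637 genes), so fold changes of low genes are understated. Genes were called at an adjusted p below 0.05. Alternatives were other pseudocounts, filters, library sets, weights and centring, edgeR 4.0.16 and DESeq2 1.42.0 on the recovered reads, a replicate block and leaving out libraries. On counts simulated at the mean values and depths of these libraries, the fit recovered 50% of genes changed 1.5-fold and 88% of those changed 2-fold. The simulated spread was assumed, not estimated from these libraries, and only genes with higher values were changed. These rates therefore do not describe low genes or genes with a wider spread. No library duplicated another: chi-square per degree of freedom between IFNg replicates was 5.02 to 26.6. KO LPS replicate 1 had 1478507 reads and enters the shared estimate of spread. Counting intervals and floors (3 reads) cover counting error only.

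The members, the 34 gene lists and the tests were chosen with earlier results of these data known. Named by rule were Cited2, Lyz2 and 7 IFNg markers, and the 8 largest called rises and falls without overlap at means of at least 10 and of at least 1000. Up to 4 members per list with the smallest p and the 5 largest interactions of each sign were also named by rule. A further 39 list members were named after their values were seen. Psmb8 and Tapbpl were named in the same way and are not in this count.

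Some members of the lists are not reported here by name.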

Additional observations from a re-analysis of the deposited data

Results flagged for a closer look

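The genotype difference with IFNg differed from that in untreated cells, by the test of the difference itself (limma adjusted p below 0.05), in 59 of the 208 named genes. It was more positive with IFNg in 43 and more negative in 16. Psmb8 and Tapbpl, whose negative interactions are given above, are not among these 208 genes. In 32 genes the fitted difference had opposite signs in the conditions with and without IFNg. The sign was taken whether or not the difference was called in either condition. Some untreated differences were small, as for Nfe2l2, Cxcl2 and Siglece, and those of Gfra1, Srpk3, Nos2 and Chrm3 with IFNg were not called. Each value below is the log2 difference, KO minus WT, with IFNg less that without treatment.

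More positive with IFNg and opposite in sign were Gfra1 3.59, Arnt2 2.94, Srpk3 2.39, Cxcl2 1.63, Cxcl1 1.62, Tnfsf15 1.52, Nos2 1.4, Ifit3 1.3, Tlr2 1.25, Ccl4 1.2, Ifit1 1.03, Trib3 1.01, Mrc1 1.0, Smad3 0.94, Ccl3 0.9, Ms4a4c 0.84, Sesn2 0.76, Il1rn 0.71, Isg15 0.63, Lgals9 0.62, Mertk 0.61, Nfe2l2 0.58, Fas 0.53, Atf4 0.36 and Slfn2 0.26. More positive with IFNg and of equal sign in both conditions were Trim30d 3.92, Prcp 2.0, Slfn4 1.31, Cmpk2 1.06, Rsad2 0.86, Ifit2 0.73, Nlrp3 0.65, Trim34a 0.61, Prdx1 0.6, Sqstm1 0.6, Ciita 0.54, Fabp4 0.54, Mmp12 0.47, Ddit3 0.46, Lipa 0.44, Srxn1 0.35 and Irf8 0.29. Asb10, with a value of 2.08, had no read in any IFNg library. More negative with IFNg and opposite in sign were Chrm3 -3.47, St6galnac2 -3.38, Itgb8 -2.61, Siglece -2.49, Fscn1 -2.02, Tnfaip3 -0.49 and Tpi1 -0.47. More negative with IFNg and of equal sign in both conditions were Gvin1 -4.69, Ccl22 -2.01, Pacs1 -0.94, Mmp14 -0.9, Oasl1 -0.59, Fcgr2b -0.57, Cd274 -0.51, Irf1 -0.49 and Ldha -0.26.

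Of these 59 genes, 41 passed the test under every alternative tried and 0 changed the sign of this value. The call was lost under some alternatives for Asb10, Ccl22, Chrm3, Ciita, Cxcl1, Gfra1, Gvin1, Ifit2 and Irf8. The same held for Ldha, Ms4a4c, Nos2, Oasl1, Sesn2, Slfn2, Srpk3, St6galnac2 and Trim34a. Nos2 was called in 7 of 23 alternatives. Some genes were named for the size of this difference, and over all genes tested 1.32% were positive and 1.18% negative.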

How the results depend on the processing

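The count of genes higher in KO with IFNg was 862 to 943 under other pseudocounts, filters, centring or the IFNg libraries alone (with the untreated ones for interactions), 1315 with edgeR, 1303 with DESeq2, 1664 with library weights and 1210 without KO LPS replicate 1, the shallowest library. The count of genes lower was 761 to 1107, 1218, 1273, 1848 and 1289 in the same order. Positive interactions numbered 239 to 322, 302, 446, 757 and 357, and negative ones 216 to 300, 285, 403, 763 and 333. The cause of these larger counts was not tested. With single libraries left out, the counts were 681 to 788 higher, 553 to 684 lower, 202 to 236 positive and 163 to 209 negative. No called value of a named gene changed sign; the uncalled differences of Gbp2 (-0.05 to 0.01), Itgae, Klf1 and Vpreb1 took both signs. Of 159 named genes that were called, 132 were called under every alternative; the others, among them Cish, Lhx2, Mcm3, Plac8, Pydc3, St6galnac2 and Tnfaip3, lost the call under at least 1.

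Replicate numbers are shared between KO and WT, but same-numbered IFNg libraries deviated together only in part (correlations 0.267, 0.256 and 0.0342), and KO replicate 3 correlated best with WT replicate 2 (0.0885), so the numbers were not taken to pair samples. With a replicate block, 769 genes were higher, 684 lower, 201 interactions positive and 154 negative. At the KO libraries' depth, 3 reads correspond to values of 1.92 to 5.08. Differences of genes near these values in both genotypes were not detectable.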
